A study of Mus musculus with 4 samples.

Results

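BRG1/BRM occupancy is described here at 36 genes for subunits of glutamate and GABA receptors, out of 21887 protein-coding genes, in mouse cortical neurons after KCl depolarization and at the basal KCl level. The genes were taken by receptor family and matched by symbol to the RefSeq annotation of GRCm38.p6, and all of them were found. They comprise 4 AMPA, 5 kainate, 7 NMDA, 1 delta, 7 metabotropic glutamate, 10 GABA-A and 2 GABA-B receptor genes. The J1 antibody used for chromatin immunoprecipitation (IP) binds BRG1 as well as BRM, either of which can be the ATPase of a BAF (SWI/SNF) complex, a remodeller of nucleosomes. Wild-type neurons were grown from E16.5 embryonic cortex. KCl cultures had been silenced on day 5 in vitro with 1 µM TTX, which blocks sodium channels, and 100 µM APV, which blocks NMDA receptors, and received 50 mM KCl for 1 h on day 6. Basal cultures stayed at the basal KCl level, and the labels do not say whether they received TTX and APV, so depolarization and pretreatment cannot be told apart. Each condition had 1 IP library and 1 input library, 4 samples in all, so the conditions were not tested against each other.

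Glutamate opens AMPA, kainate and NMDA receptors, which are cation channels assembled from several subunits, and acts more slowly through metabotropic receptors that couple to G proteins. GABA opens the chloride channel of GABA-A receptors and signals through the G protein-coupled GABA-B receptor. In cortical neurons the subunits present set the speed, calcium entry and drug response of synaptic currents, and several of these subunits are exchanged as the cortex matures.

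The measurement was a list of enriched regions, called islands, for each IP library. Each island carried its IP reads, the reads of a control that the sources used here do not identify, and the fold of IP over control, which the authors scaled by library size. The KCl list held 20966 islands with 1433200 IP reads and 400612 control reads, and the basal list 711 islands with 142021 IP reads and 130865 control reads. Total depth is not given in the sources used here. A place without an island has no read count in the list, so a missing call is not a measured absence. Brackets give 95% exact binomial intervals that cover counting error only. Islands do not measure expression, but their places can be set beside marker genes. In the KCl list 8 of 10 cortical neuron markers, among them Tbr1 and Slc17a7, had an island at an end of the gene. An end is the 2 kb to either side of the start or far end. The interval of that share was 44.4% to 97.5%, against 29.7% of all genes in the same deciles of length. Of 10 glia and microglia markers 1 did, Aqp4 (interval 0.253% to 44.5%), against 22.9% of all genes in their deciles. The glial count is thus close to background and does not show an absence specific to glia.

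After KCl, 22 of the 36 receptor genes (61.1% [43.5 to 76.9]) had an island at an end, where 25.2% of all protein-coding genes did. In basal neurons 0 of 36 did (upper limit of the interval 9.74%), where 0.411% of all genes did, so a count of 0 is close to that background. Anywhere in the body or the 10 kb flanks, 28 receptor genes (77.8% [60.8 to 89.9]) had a KCl island, against 38.9% of all genes. There, 1 of 36 (2.78% [0.0703 to 14.5]) had a basal island, against 1.68% of all genes. The 14 genes without a KCl island at an end included 6 with an island farther inside or in the flanks and 8 with none in either region. An island at an end was thus called at most receptor genes in KCl neurons and at none in basal neurons, in lists that differ widely in length.

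These genes are long, with a median of 218 kb beside 17.2 kb for all genes, and long genes meet more islands. Taking for each receptor gene the share of all genes in its decile of length gave 39.8% for ends and 68.5% for bodies in KCl. In basal neurons the same reckoning gave 0.729% and 5.55%. At those shares 14.3 genes would have a KCl island at an end, against the 22 counted, and 24.7 would have one in the body or flanks, against the 28 counted. The receptor genes' share was nearer to that of genes of like length in bodies than at ends. Of the 23 receptor genes in the longest decile (108.5 kb or more), 18 had a KCl island at an end (78.3% [56.3 to 92.5]), against 46.0% of all genes of that decile. Of the 13 shorter ones, 4 did (30.8% [9.09 to 61.4]), against 28.7% of all genes in their deciles. With folds of at least 2 only, 8 of 36 receptor genes had a KCl island at an end, against 8.74% of all genes. With the KCl list limited to the 711 islands of lowest deposited p-value, 0 of 36 did, against 0.114% of all genes. The shares of all genes under these stricter settings were not adjusted for length.

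**Figure D1:**
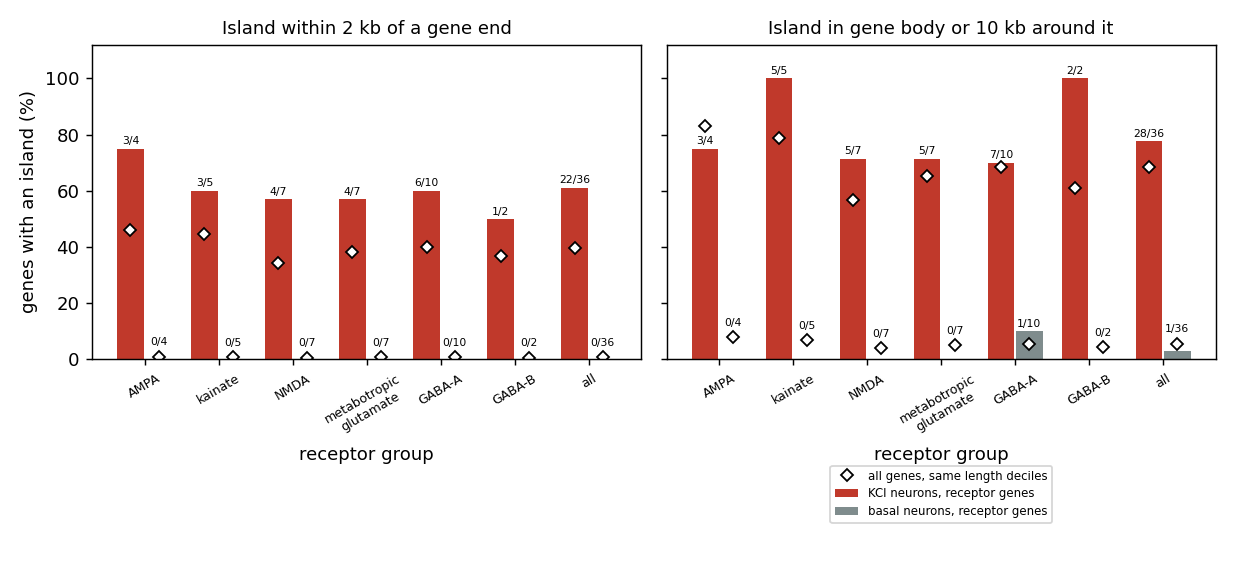
Share of receptor genes (%) with an island at an end (left panel) and in the body or its 10 kb flanks (right panel), for KCl (red) and basal neurons (grey), by receptor group, with the delta receptor gene shown under all genes only. Numbers over the bars are genes with an island of genes in the group, and diamonds are the share of all protein-coding genes in the same length deciles. At ends each red bar stands above its diamond, and in bodies the AMPA bar (3 of 4) stands below it and the GABA-A bar (7 of 10) next to it.

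The receptor groups lay close together at gene ends. After KCl an end island was called at 3 of 4 AMPA, 3 of 5 kainate, 4 of 7 NMDA, 1 of 1 delta, 4 of 7 metabotropic glutamate, 6 of 10 GABA-A and 1 of 2 GABA-B genes. In all, 15 of 24 glutamate receptor genes (62.5% [40.6 to 81.2]) and 7 of 12 GABA receptor genes (58.3% [27.7 to 84.8]) had one. With groups this small the intervals overlap almost entirely, and no order of the groups can be read from them.

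Among the AMPA receptor genes, which encode the channels of fast excitatory transmission, Gria2 had the end island with the most reads. Gria2 encodes the subunit whose RNA editing keeps most AMPA receptors impermeable to calcium. Its island covered 6200 bp at the start of the gene (chromosome 3, 80797801 to 80804000), with 202 IP and 72 control reads in KCl neurons (1.76-fold [1.34 to 2.34]). Gria4 had 133 IP and 39 control reads at its start (2.14-fold [1.49 to 3.14]) and 3 more islands inside the gene, up to 3.91-fold [1.92 to 8.99]. At Gria1, a subunit that is inserted into synapses during potentiation, the end island held 61 IP and 24 control reads, and its interval reached below 1 (1.60-fold [0.981 to 2.68]). Gria3, on the X chromosome, had no island in either region or list.

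All 5 kainate receptor genes had a KCl island in the body or within 10 kb, but only 3 at an end. Grik2, which encodes a principal kainate subunit, had the widest end island of all receptor genes, 8400 bp with 238 IP and 86 control reads (1.74-fold [1.35 to 2.25], chromosome 10, 49780601 to 49789000). It had 7 further islands inside the gene, from 1.88-fold to 8.29-fold [3.38 to 26.4]. Grik5, which encodes a kainate subunit of high affinity, had 55 IP and 13 control reads at its start (2.66-fold [1.43 to 5.30]). That island also lies within 2 kb of an end of Zfp574. Grik1 had 65 IP and 19 control reads at an end (2.15-fold [1.27 to 3.79]). Grik3 had 1 island inside the gene (2.29-fold [1.25 to 4.48]) and Grik4 had 5, between 1.54-fold and 3.35-fold, and neither had one at an end.

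Of the NMDA receptor genes, Grin1, Grin2a, Grin2b and Grin3a had an end island. Grin1, the subunit present in every NMDA receptor, had an island at each end. The one over its start held 87 IP and 33 control reads (1.66-fold [1.10 to 2.55]). The one at its far end held 177 IP and 80 control reads (1.39-fold [1.06 to 1.83]) and lay within 2 kb of ends of Anapc2, Tmem210 and Lrrc26 as well. Grin2a and Grin2b, the glutamate-binding subunits that dominate in cortex, had 107 IP and 24 control reads (2.80-fold [1.79 to 4.56]) and 96 IP and 35 control reads (1.72-fold [1.16 to 2.61]) at an end. The Grin2a island had the largest fold of all islands at receptor gene ends. Grin3a, a glycine-binding subunit, had 87 IP and 30 control reads (1.82-fold [1.19 to 2.86]). Grin2c, known from cerebellar granule cells, and Grin2d had no island in either region. Grin3b had 1 island in its flank only, next to Tmem259 (1.84-fold [1.22 to 2.85]).

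Grid1, the delta receptor gene, whose protein binds cerebellins at synapses, had 74 IP and 18 control reads at an end (2.58-fold [1.53 to 4.59]) and 4 islands inside, up to 6.49-fold [2.02 to 33.2].

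Of the metabotropic glutamate receptor genes, the 4 with an end island were the 4 longest of the group. Grm5, which couples to phospholipase C, had 113 IP and 26 control reads (2.73-fold [1.77 to 4.36], chromosome 7, 87583601 to 87587600). Grm3, which inhibits adenylyl cyclase, had 188 IP and 64 control reads in an island of 6600 bp (1.84-fold [1.38 to 2.49]). The presynaptic receptor genes Grm7 and Grm8 had 74 IP and 24 control reads (1.94-fold [1.21 to 3.21]) and 107 IP and 40 control reads (1.68-fold [1.16 to 2.48]). Grm2 had islands in its flanks only, of which the stronger held 109 IP and 14 control reads (4.89-fold [2.79 to 9.24]). Grm4 and Grm6 had no island in either region. Grm6 is known as the receptor of retinal ON bipolar cells.

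GABA-A receptor genes with an end island were spread over alpha, beta and gamma subunits. Gabrg1 had the largest fold of these, with 85 IP and 21 control reads (2.54-fold [1.56 to 4.32]). Gabrb2, whose subunit belongs to the commonest GABA-A receptor of adult brain, had 106 IP and 34 control reads (1.96-fold [1.32 to 2.97]). Gabrb1 had 75 IP and 23 control reads at its far end (2.05-fold [1.27 to 3.42], chromosome 5, 72147801 to 72149600). Gabra2 had 185 IP and 69 control reads over 6200 bp (1.68-fold [1.27 to 2.25]). Gabra5 had 106 IP and 38 control reads (1.75-fold [1.20 to 2.61]) in an island that is also within 2 kb of an end of another gene. That island lies between -83.5 and -79.7 kb from the only Gabra5 start in the promoter table, so its link to Gabra5 rests on the outer limit of the annotated gene. Gabrg3 had 53 IP and 21 control reads, and its interval reached below 1 (1.59-fold [0.940 to 2.77]). Gabra4 had no end island but 4 inside, from 2.10-fold to 5.44-fold [1.67 to 28.1]. Gabra3, Gabra6 and Gabrd had none. Gabra6 is known from cerebellar granule cells, and Gabrd encodes a subunit of extrasynaptic receptors.

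The GABA-B receptor is a dimer of the Gabbr1 and Gabbr2 proteins. At Gabbr1 the island held 94 IP and 38 control reads (1.55-fold [1.06 to 2.33]) and began 1.64 kb downstream of the annotated start. Gabbr2 had no end island but 4 inside the gene, from 1.498-fold [1.02 to 2.24] to 4.71-fold [2.003 to 13.5].

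**Figure D2:**
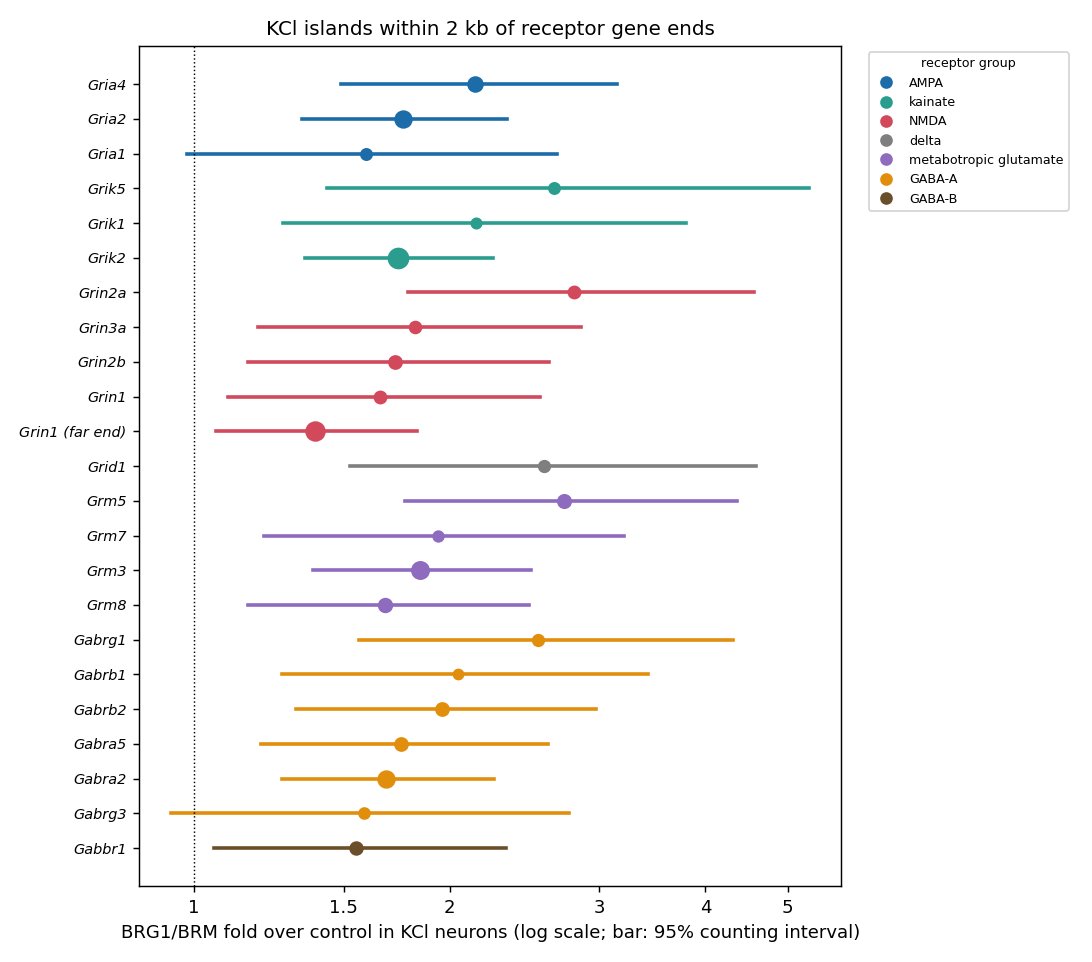
Fold of IP over control (log axis) of the 23 KCl islands within 2 kb of the ends of 22 receptor genes, coloured by receptor group, with 95% counting intervals as bars and dot size by island width. Folds run from 1.39 at the far end of Grin1 to 2.80 at Grin2a, and the bars of Gria1 and Gabrg3 cross 1. No basal island lay at these ends.

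Islands at receptor gene ends were broad and of low fold, and those inside the genes narrower and of higher fold. The 23 end islands had a median fold of 1.82 (1.39 to 2.80) and a median width of 3600 bp, beside 1.82 and 2400 bp for all 4856 KCl islands at gene ends. The 94 receptor gene islands at no gene end had a median fold of 2.80 and a median width of 1600 bp, beside 2.55 and 1600 bp for all 8204 such KCl islands in or around genes. Median folds at ends were thus alike in receptor genes and in the whole list, and receptor gene end islands were wider. Their intervals lay above 1 in 21 of 23 cases (91.3%), against 76.1% of all KCl islands at gene ends. Receptor gene end islands also held more IP reads (median 96 against 71), and an interval narrows as reads grow. The higher share is thus not a sign of higher fold. Of 18 receptor genes with islands both at an end and inside, 17 had their highest fold inside, and Grin3a was the exception. Most of these genes had more islands inside than at an end, which by itself favours a highest fold inside. The same count was not made over all genes, but median folds in the whole list were also higher away from ends (2.55 against 1.82). The highest fold was that of a 400 bp island inside Grin2a with 48 IP and 3 control reads (10.05-fold [3.24 to 50.4], chromosome 16, 9584001 to 9584400). The next were islands inside Grik2 (66 IP and 5 control reads), Grm5 (39 IP and 3 control reads, 8.16-fold [2.60 to 41.3]) and Grm8 (26 IP and 2 control reads, 8.16-fold [2.04 to 71.0]). With so few control reads, these folds are known only to within a factor given by their wide intervals. A firmer one lay inside Gabra2, with 149 IP and 15 control reads (6.24-fold [3.66 to 11.4], chromosome 5, 71010201 to 71012400).

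**Figure D3:**
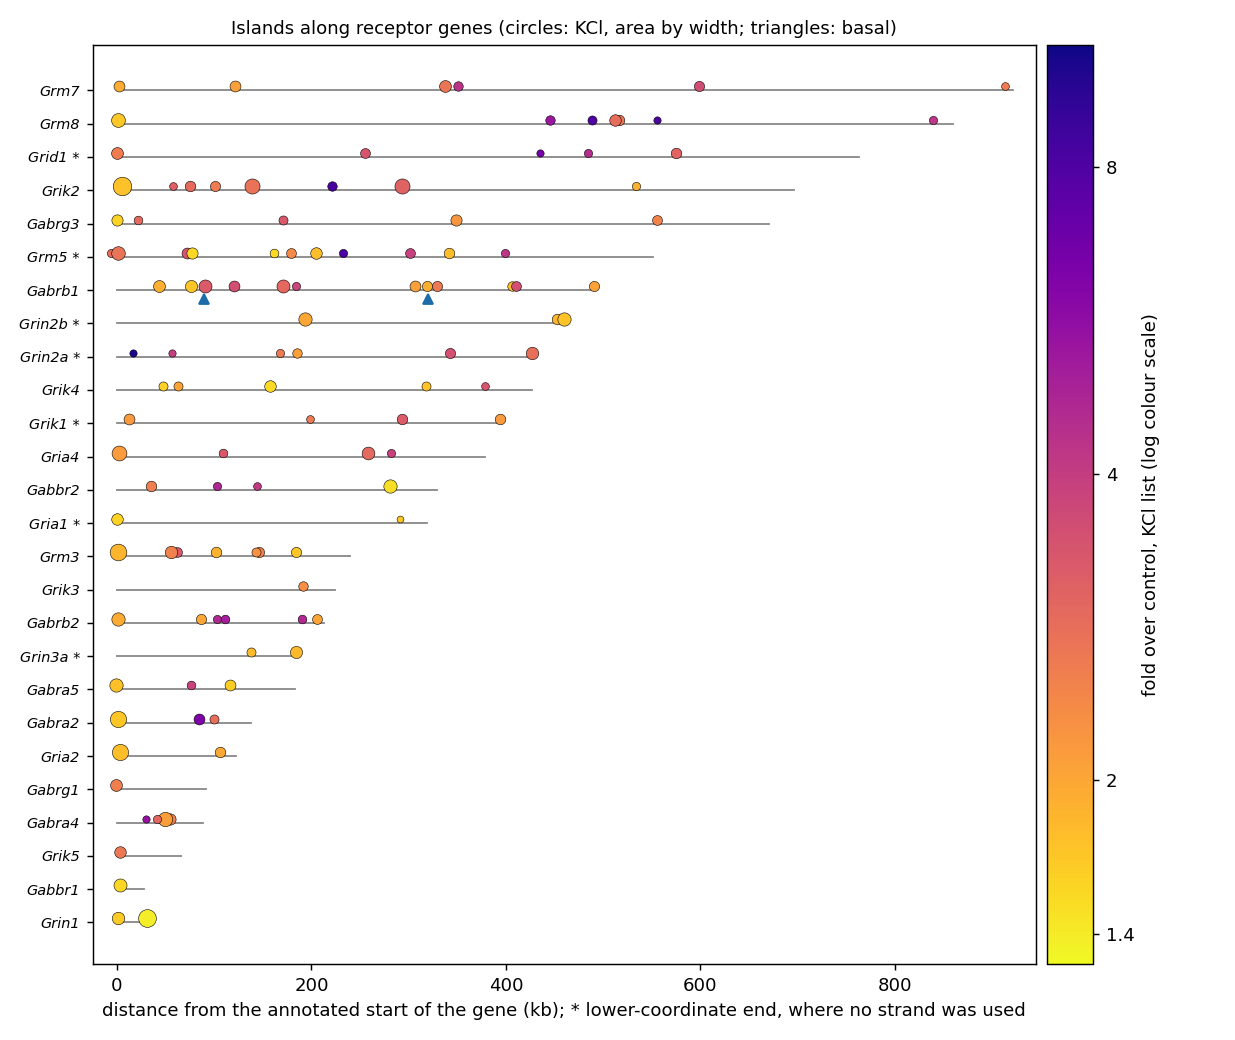
Islands along the 26 receptor genes with a KCl island at an end or inside, as distance from the annotated start (kb), or from the lower-coordinate end for genes marked with an asterisk, whose strand was not used. Circles are KCl islands with area by width and colour by fold on a log scale, and triangles are basal islands. Wide, low-fold circles stand at gene ends, mostly narrower ones of higher fold inside, and triangles stand at Gabrb1 alone.

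A total of 118 KCl islands lay in or around receptor genes, of which 23 were at ends, 91 inside and 4 in flanks. Gabrb1 held the most, 12 islands in a gene of 492 kb, or 2.35 per 100 kb of gene and flanks, a density reached by 6.64% of the 437 genes of like length (350 kb and longer). Grm5 followed with 11 (1.93 per 100 kb, reached by 12.4%). Grm3 had 7 in 240 kb (2.69 per 100 kb, reached by 5.02% of genes of like length), Gabrb2 had 6 (2.57 per 100 kb) and Gabra4 had 4 (3.68 per 100 kb, reached by 2.28%). Grm7, the longest receptor gene with 922 kb, had 6 islands (0.637 per 100 kb, reached by 75.3%). Over the 23 longest receptor genes together there were 1.06 islands per 100 kb, beside 1.12 over all genes of the longest decile. The number of islands in receptor genes was thus close to that of other long genes. Classes of like length hold 2% of all genes each and were chosen after the data were seen.

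**Figure D4:**
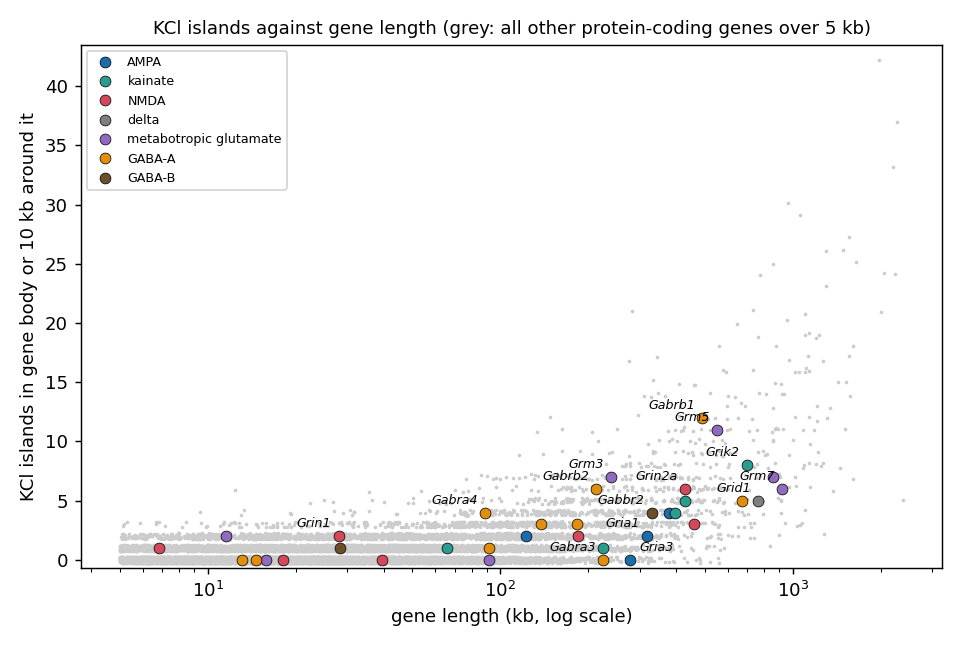
Number of KCl islands in the body and 10 kb flanks against gene length (kb, log axis) for receptor genes, coloured by group, and for all other protein-coding genes over 5 kb in grey, with small vertical jitter on the grey points. Receptor genes lie within the grey cloud, with Gabrb1 (12 islands) and Grm5 (11) near its upper side and Gria3 and Gabra3 at 0.

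The only basal islands at receptor genes lay inside Gabrb1, which encodes a GABA-A beta subunit. Both overlapped a KCl island. At chromosome 5, 71746401 to 71750000, the KCl island held 145 IP and 28 control reads (3.25-fold [2.16 to 5.06]), and the basal island within it held 41 IP and 15 control reads (3.11-fold [1.68 to 6.04]). At 71976401 to 71978200 the KCl island held 82 IP and 27 control reads (1.91-fold [1.22 to 3.07]), and the basal island over it held 59 IP and 47 control reads (1.43-fold [0.956 to 2.14]). Folds of the lists rest on different library constants and were not compared. The interval of the second basal island reached below 1. These 2 are 2 of 118 KCl islands and 2 of 2 basal islands at receptor genes. In the whole lists 2.15% of KCl islands and 63.2% of basal islands overlapped one of the other list. At the share of genes of like length, 1.998 receptor genes would have a basal island in the body or within 10 kb, and 1 had.

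The islands at ends were nearly all at the start of the gene. The promoter table gives the strand of 26 receptor genes, and 15 of these had a KCl island at an end. For this count, in receptor genes and in all genes, the start was the outer limit of the annotated gene on its strand. An island lay at the start alone in 13, at both ends in Grin1 and at the far end alone in Gabrb1. The 13 include Gabra5, whose island lies between -83.5 and -79.7 kb from its only start in the promoter table. Among all 17492 genes with a strand, 22.7% had a KCl island at the start and 5.08% at the far end, and 90.7% of those with an end island had it at the start, against 93.3% of receptor genes. The Gabrb1 promoter table holds a second start farther inside the gene, and a KCl island covered that one (82 IP and 27 control reads, 1.91-fold [1.22 to 3.07], 71699601 to 71702400). In 11 receptor genes the outermost start lay inside an island. These islands reached a median of 3145 bp downstream and 1385 bp upstream of it, beside 1514 bp and 947 bp over the 3703 such starts of all genes. Downstream reach was the greater in 8 of 11, against 69.5% of all such starts. It was longest at Grik2, with 8153 bp downstream and 246 bp upstream.

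The promoters under these islands are shown because their letters bear on what the islands cover. The 250 bases before the start, 5′ to 3′, are given for the 6 genes that came first by fold among those with an island over the window and a match to a searched motif. Sequences are from RefSeq, build GRCm38.p6, and capitals mark motif matches on either strand. They are Gria2 (chr3:80802836-80803085, minus strand), Grik5 (chr7:25072370-25072619, minus strand), Grm3 (chr5:9725353-9725602, minus strand), Gabra2 (chr5:71095850-71096099, minus strand), the second start of Gabrb1 (chr5:71699682-71699931, plus strand) and the outermost start of Gabrb2 (chr11:42420190-42420439, plus strand).
Gria2: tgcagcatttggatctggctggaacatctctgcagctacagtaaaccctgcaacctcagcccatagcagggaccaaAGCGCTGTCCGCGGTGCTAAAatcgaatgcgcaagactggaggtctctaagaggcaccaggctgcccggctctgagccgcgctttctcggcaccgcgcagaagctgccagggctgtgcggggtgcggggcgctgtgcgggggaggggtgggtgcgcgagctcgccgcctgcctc
Grik5: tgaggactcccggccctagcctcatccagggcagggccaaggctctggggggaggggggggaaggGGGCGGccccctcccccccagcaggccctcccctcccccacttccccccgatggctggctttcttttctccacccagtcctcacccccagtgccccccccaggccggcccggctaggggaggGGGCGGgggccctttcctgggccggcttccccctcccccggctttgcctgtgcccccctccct
Grm3: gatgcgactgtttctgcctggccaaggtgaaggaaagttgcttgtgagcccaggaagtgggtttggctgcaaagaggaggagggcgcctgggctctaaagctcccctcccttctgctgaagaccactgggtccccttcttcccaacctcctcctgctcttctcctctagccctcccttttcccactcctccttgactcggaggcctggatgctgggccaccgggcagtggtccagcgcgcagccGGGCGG
Gabra2: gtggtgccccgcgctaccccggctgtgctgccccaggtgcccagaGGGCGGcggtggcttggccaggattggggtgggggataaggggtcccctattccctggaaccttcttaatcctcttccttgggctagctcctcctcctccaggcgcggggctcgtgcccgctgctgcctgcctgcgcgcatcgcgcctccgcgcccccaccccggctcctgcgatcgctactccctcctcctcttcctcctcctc
Gabrb1: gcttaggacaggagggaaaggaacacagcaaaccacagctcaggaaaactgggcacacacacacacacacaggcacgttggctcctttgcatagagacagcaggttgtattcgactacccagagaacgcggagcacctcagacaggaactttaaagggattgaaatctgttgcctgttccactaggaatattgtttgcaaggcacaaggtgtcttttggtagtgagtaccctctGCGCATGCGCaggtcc
Gabrb2: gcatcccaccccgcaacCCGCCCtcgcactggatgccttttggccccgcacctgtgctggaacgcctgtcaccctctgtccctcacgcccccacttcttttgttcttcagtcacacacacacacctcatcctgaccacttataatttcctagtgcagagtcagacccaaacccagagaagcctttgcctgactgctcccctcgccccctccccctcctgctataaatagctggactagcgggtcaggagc

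In Gria2 the capitals are a match to RE1, the site bound by the neuronal gene silencer REST, from position -174, on the strand opposite to the one printed. In Gabrb1 they are a match to the NRF1 motif, from position -16. In Grik5, Grm3, Gabra2 and Gabrb2 they are SP/KLF motifs. Positions count from the annotated start. Motifs were searched on both strands of 300 bases (250 before and 50 after the start) in 33 windows of 26 receptor genes and 21263 windows of all protein-coding genes. RE1 (with up to 3 mismatches in its 17 fixed bases) was found in 1 receptor gene window, that of Gria2, and in 0.376% of all windows. The NRF1 motif was in 2, Gria2 and Gabrb1, both under an island, and in 6.38% of all windows. The SP/KLF motif (GGGCGG) was in 16 (48.5%), against 46.2% of all windows. Of motifs for activity-regulated factors, AP-1 (TGANTCA) was in 2, in Grm8 and Grin3b, against 6.99% of all windows. The CRE (TGACGTCA), the EGR motif (GCGTGGGCG) and the SRF CArG box were in 0 of 33, against 2.23%, 0.828% and 1.52% of all windows. The EGR and SP/KLF motifs share the letters GGGCG. A match is a description of letters and does not show binding.

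The CpG content of the covered promoters was low beside that of other covered promoters. A KCl island overlapped 15 windows of 12 receptor genes, and their median ratio of observed to expected CpG was 0.519, against 0.538 in the 18 receptor gene windows without an island. Over all genes the medians were 0.816 in the 4744 windows under a KCl island and 0.422 in the 16519 others. Among windows with a ratio between 0.25 and 0.5, 7 of 9 receptor gene windows were under an island, against 10.8% of all windows. Those 7 belong to Grik5 (0.277), Gabrg1 (0.276), Grm3 (0.362), Gabrb1 (0.474), Gabrb2 (0.478), Grm8 (0.490) and Gabrg3 (0.496). The same Grm8 island also covered a CpG-rich window of that gene (0.986), and the same Gabrb2 island covered a window with a ratio of 0.769. The 2 without an island were both of Grm7, whose island began 0.489 kb downstream of its outermost start. Above a ratio of 0.75, 5 of 10 receptor gene windows were under an island, against 41.0% of all windows. Those under an island were of Grin1 (1.20), Grm8 (0.986), Grik2 (0.836), Gria2 (0.804) and Gabrb2 (0.769). Those without were of Grik4 (1.16), Grik3 (1.01), Gabbr2 (0.961), Grin2d (0.848) and the outermost start of Gabrb1 (0.805). Windows of 1 gene share an island, so they are not independent, and the classes were set after the data were seen.

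**Figure D5:**
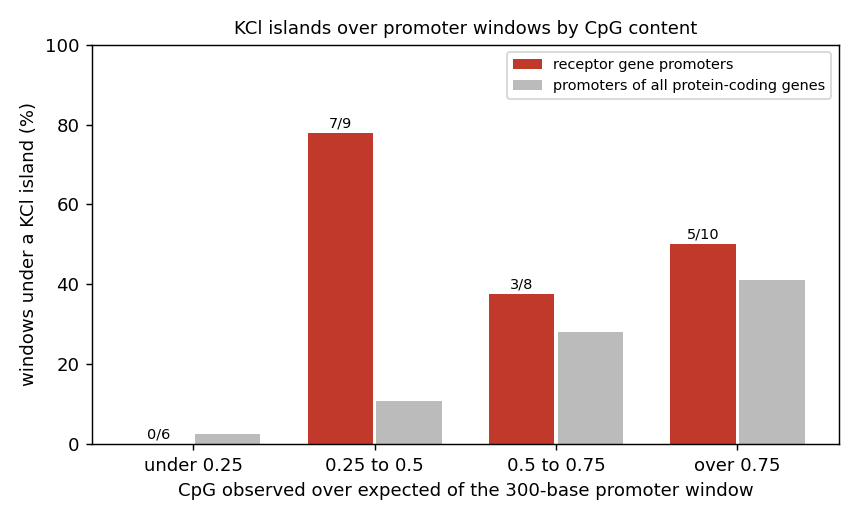
Share of 300-base promoter windows under a KCl island (%) in 4 classes of CpG observed over expected, for receptor genes (red, with windows under an island of all windows) and for all protein-coding genes (grey). The receptor gene bar is far above the grey one in the class 0.25 to 0.5 (7 of 9 against 10.8%) and nearer to it in the 2 classes above.

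Islands were also counted at 36 genes of proteins that accompany these receptors, namely auxiliary subunits, anchoring and trafficking proteins and extracellular partners. After KCl, 23 of them had an island at an end (63.9% [46.2 to 79.2]), beside 32.7% of genes of like length, and 30 in the body or within 10 kb (83.3%), beside 53.3%. In basal neurons 0 had one at an end, beside 0.565% of genes of like length, and 1 in the body or within 10 kb (2.78%), beside 3.38%. Both basal counts are close to that background. The largest end folds were those of Cacng2, the TARP stargazin that carries AMPA receptors to the synapse (66 IP and 15 control reads, 2.76-fold [1.56 to 5.21]), and Nptx2, a pentraxin that clusters AMPA receptors (48 IP and 11 control reads, 2.74-fold [1.404 to 5.85]). The TARP gene Cacng3 (2.39-fold [1.36 to 4.45]) and Nptx1 (2.36-fold [1.34 to 4.38]) followed. Gphn, which encodes the scaffold gephyrin of GABA-A and glycine receptors, was the member with a basal island. At that place (chromosome 12, 78360601 to 78361600) the KCl island held 134 IP and 17 control reads (4.95-fold [2.98 to 8.75]), and the basal island 31 IP and 15 control reads (2.35-fold [1.23 to 4.68]). With an FDR of at most 1e-05, 11 of 36 accompanying genes had an end island in KCl, where 15.1% of all genes, of any length, did.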

How the data were processed

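BRG1/BRM ChIP-seq islands of 2 IP libraries, 1 per condition, were analysed, while the inputs' own files were not used. The submitters' processing notes name BWA, mm10 (GRCm38) and SICER 1.0. Settings in the list names are 200 bp for the window, 600 bp for the gap and 0.01 for the FDR. Each list was called on 1 library with a control, and which input served as control is not given in the sources used here. For every island the authors deposited an IP read count, a control read count, a p-value with its FDR, and a fold, which is the IP/control read ratio over a library constant (1.59 in KCl, 0.880 in basal). Folds were used within a list only.

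Coordinates were made 1-based. An island counted at a gene end when it met the 2 kb to either side of it by at least 1 bp, and in a body when it met the gene or 10 kb around it. Genes were RefSeq protein-coding genes of GRCm38.p6 on the autosomes, X and Y, and 26 members matched the RefSeq promoter table, from which strand and sequence came. Members were set beside the share of all genes in the same decile of gene length. Intervals are exact Clopper-Pearson intervals, for folds from IP among IP and control reads. Reads carry no molecular identifiers, so intervals cover counting error only. The overlap code was tested on simulated islands and against bedtools 2.31.1. Python 3.11.15 with pandas 2.3.3 and scipy 1.17.1 was used.

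Members and lists were chosen with earlier results of these data known. Every member is accounted for by name, values are given for those with an end island or a basal island and for the densest of each group, and for up to 4 accompanying genes by fold at an end. Other genes named were chosen after their values were seen.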

Additional observations from a re-analysis of the deposited data

How the results depend on the processing

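Over the planned settings 45 recomputed overall values stayed within 1.5 times the reported one and 7 did not. The count of receptor genes with a KCl end island (22) was 8 with folds of at least 2, where 8.74% of all genes had one. It was 0 with the KCl list shortened to the basal length by p-value, where 0.114% of all genes had one, and otherwise 18 to 23. The body count in KCl (28) was 3 with the shortened list (8.33%, against 1.51% of all genes) and otherwise 22 to 31. The 22 came with folds of at least 2 (61.1%, against 21.7% of all genes). The 31 came with flanks of 50 kb (86.1%, against 59.4% of all genes). The shares of all genes in this section were not adjusted for length. Basal islands per 100 kb of receptor genes (0.0186) were 0.00932 with an FDR of at most 1e-05 and also with folds of at least 2. In the accompanying genes an FDR of at most 1e-05 left 11 of 23 KCl end calls and 0 of 1 basal call in a body. By receptor group 154 recomputed counts stayed within 1.5 times and 28 did not. Length classes of 2% instead of deciles were added after the data were seen and gave 15.3 in place of 14.3 genes at ends. No paired analysis was possible because each condition had 1 IP library. Depth is unknown, and places without an island could not be compared.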

Other observations

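The X-linked receptor genes had no islands. Gria3 (278 kb) and Gabra3 (224 kb) had none in either list within 10 kb, and the nearest KCl island lay 840 kb from an end of Gria3 and 421 kb from an end of Gabra3. Chromosome X was sparse as a whole. Of its 966 protein-coding genes 3.11% [2.10 to 4.40] had a KCl island at an end, beside 24.7% of all genes of like length, and the autosomes ranged from 17.3% to 35.6%. Of the 103 X-linked genes in the longest decile, 5.83% [2.17 to 12.2] had one, against 46.0% of all genes of that decile. In the body or 10 kb flanks, 38 of these 103 (36.9% [27.6 to 47.0]) had a KCl island, against 83.0% of that decile. The 227 KCl islands called on chromosome X had a median fold of 3.87, beside 2.40 over the whole KCl list. Why fewer islands were called on X was not tested, and a missing call there is not a measured absence. Among the 34 autosomal receptor genes 22 had a KCl island at an end (64.7%), against 26.5% of all autosomal genes.

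The GABA-A genes of chromosome 5, Gabrg1, Gabra2, Gabra4 and Gabrb1, lie together over 1399 kb and held 20 of the 118 KCl islands and both basal islands at receptor genes. Gabra4 and Gabrb1 overlap by 388 bp at their starts, and no island was called at that shared place in either list. The nearest KCl islands lay 30.1 kb into Gabra4 and, on the other side, over the second start of Gabrb1.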
